A study of Mus musculus with 4 samples.

Results

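The class IIa histone deacetylase (HDAC) genes of the mouse, Hdac4, Hdac5, Hdac7 and Hdac9, were examined for stretches of open chromatin along and around their gene bodies. Members were all peaks of the 4 deposited ATAC-seq lists that lay within a GENCODE gene record or 20 kb on either side of it, merged across libraries wherever peaks shared at least 1 base. This gave 71 regions out of 93679 in the genome. They were distributed as 36 at Hdac4, 10 at Hdac5, 15 at Hdac7 and 10 at Hdac9. The genes were chosen by name and the rule uses no peak value. Hdac9 is the gene that the study followed as a target raised by IL-4.

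Both groups started from naive CD4+ T cells, taken by flow sorting from the spleen of male WT C57BL/6 mice aged 7 weeks as CD25- cells with high CD62L and low CD44. All cells were cultured for 48 h on plates coated with anti-CD3 at 5 µg/ml, with anti-CD28 at 1 µg/ml in solution, human TGF-b1 at 5 ng/ml and mouse IL-2 at 10 ng/ml, which polarizes them towards induced regulatory T cells (iTreg). The iTreg group (n = 2 libraries) received no IL-4, and the iTreg+IL-4 group (n = 2 libraries) received mouse IL-4 at 15 ng/ml. The labels name no sort after culture, so each library is taken to average over all cells of the culture, and the study describes its samples as pooled.

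Class IIa HDACs are transcriptional corepressors that shuttle between nucleus and cytoplasm. They bind MEF2 transcription factors through an amino-terminal adaptor domain, carry little deacetylase activity of their own, and recruit HDAC3 through the NCOR and SMRT corepressors. Kinases of the PKD, CaMK and SIK families phosphorylate them, after which 14-3-3 proteins hold them in the cytoplasm. HDAC7 is the family member best known in T cells, where it represses Nr4a1 in thymocytes. ATAC-seq marks DNA that the Tn5 transposase can reach, so a peak inside an intron or beyond a gene reports an accessible element and not the level of a transcript.

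The lists held 77064 and 56645 peaks for the iTreg libraries (replicates 1 and 2) and 78670 and 67743 for the iTreg+IL-4 libraries, so that iTreg replicate 2 was the shortest. The lists contain no reads and the depth of each library is unknown. For this reason each peak was described by its rank within its own list, the percentage of that list's peaks with a higher −log10 q-value, where 0% is the highest peak. The promoters of all 7 CD4+ T cell markers examined (Cd3e, Cd3g, Cd4, Cd5, Lck, Cd28 and Il2ra) carried a peak in all 4 libraries. Promoter peaks in all 4 libraries were found for 0 of 3 B cell, 0 of 4 myeloid, 0 of 2 NK cell and 1 of 2 CD8 (Cd8b1) markers. However, the B cell marker Ms4a1 lacked a promoter peak only in iTreg replicate 1, and the myeloid marker Itgam only in iTreg replicate 2. Cd8a had one in replicate 1 of both conditions. The other B cell, myeloid and NK cell markers had none in any library. Whether such cells had a part in the member results was not tested.

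The elements on which the comparisons turn are shown first, as the plus strand of GRCm38 from 5′ to 3′. Each line gives the central 200 bases of a merged region, named by gene and by distance from the start of its gene record, with positive distances pointing into the gene. Capitals mark every match, on either strand, to the AP-1 motif TGANTCA, the GATA motif AGATAA, the RUNX motif TGTGGT, or the STAT5-type, STAT6-type and MEF2-type patterns defined with the motif counts. The first pair are the only regions that both libraries with IL-4 called and both without it lacked, at chr1:92166005-92166204 and chr15:97776527-97776726.
Hdac4 +29.6 kb: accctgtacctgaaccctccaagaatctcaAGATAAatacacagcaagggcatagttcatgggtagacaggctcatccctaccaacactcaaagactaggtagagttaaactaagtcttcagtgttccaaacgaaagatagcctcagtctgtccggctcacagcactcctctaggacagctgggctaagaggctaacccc
Hdac7 +67.9 kb: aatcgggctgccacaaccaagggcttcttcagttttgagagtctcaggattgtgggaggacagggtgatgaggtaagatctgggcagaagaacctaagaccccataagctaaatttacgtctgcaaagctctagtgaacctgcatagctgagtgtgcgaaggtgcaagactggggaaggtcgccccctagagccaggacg
The next 3 are the regions with the best rank, in the library where they ranked lowest, among those called in all 4 libraries and lying outside promoters and annotated exons of Hdac4, Hdac5 and Hdac7, at chr1:92080092-92080291, chr11:102245120-102245319 and chr15:97825202-97825401.
Hdac4 +115.5 kb: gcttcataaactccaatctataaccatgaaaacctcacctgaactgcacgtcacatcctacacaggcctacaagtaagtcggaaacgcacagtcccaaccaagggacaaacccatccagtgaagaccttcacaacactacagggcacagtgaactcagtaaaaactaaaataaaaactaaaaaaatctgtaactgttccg
Hdac5 -15.1 kb: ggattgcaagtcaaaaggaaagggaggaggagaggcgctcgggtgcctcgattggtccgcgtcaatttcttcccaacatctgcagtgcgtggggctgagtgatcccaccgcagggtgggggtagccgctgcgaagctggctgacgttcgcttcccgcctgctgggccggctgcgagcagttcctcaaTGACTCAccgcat
Hdac7 +19.2 kb: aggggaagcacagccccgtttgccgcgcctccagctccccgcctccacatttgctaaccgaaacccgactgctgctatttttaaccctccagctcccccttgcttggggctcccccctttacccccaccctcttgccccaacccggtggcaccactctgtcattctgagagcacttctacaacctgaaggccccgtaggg
The last pair are the only Hdac9 regions called in all 4 libraries, at chr12:34808278-34808477 and chr12:34907138-34907337.
Hdac9 +108.7 kb: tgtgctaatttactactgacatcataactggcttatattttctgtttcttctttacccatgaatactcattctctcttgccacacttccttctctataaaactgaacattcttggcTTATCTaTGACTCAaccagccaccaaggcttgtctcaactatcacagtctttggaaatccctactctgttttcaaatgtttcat
Hdac9 +9.9 kb: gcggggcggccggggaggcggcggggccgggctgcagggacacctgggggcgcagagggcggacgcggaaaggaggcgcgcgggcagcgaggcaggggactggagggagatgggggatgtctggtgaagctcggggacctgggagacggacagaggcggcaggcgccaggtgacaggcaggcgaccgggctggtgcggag
The +108.7 kb element of Hdac9 held a GATA match beginning at base 117 of its window and an AP-1 match beginning at base 124, with 1 base between them. The Hdac9 +9.9 kb window contained none of the 6 patterns and had a GC content of 76.5%, against 37% for the +108.7 kb window and a median of 49.5% over 93503 regions on assembled chromosomes.

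Hdac9 was the sparsest of the 4 loci and had no strong peak in either condition. The gene covers 869.5 kb of chromosome 12 (chr12:34047580-34917095, minus strand), and with its flanks held 10 regions, or 1.10 per 100 kb. That density stood at the 18.1 percentile of 21911 protein-coding genes, whose median was 6.81 per 100 kb. Among the 85 protein-coding genes with a record at least as long, the median number of regions was 4 and 20 genes had more than Hdac9. A stretch of 340.5 kb inside the gene (chr12:34092158-34432672), 37.4% of the window, held no region.

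**Figure D1:**
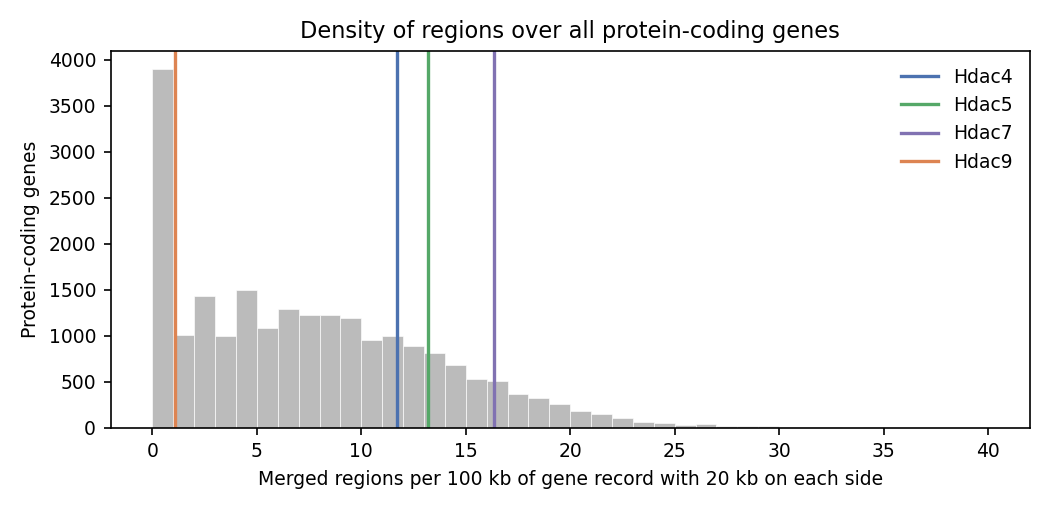
Histogram of merged regions per 100 kb over protein-coding genes (x axis, regions per 100 kb of gene record with 20 kb on each side; y axis, number of genes), with a line for each class IIa HDAC gene. Hdac9 sits at 1.10, below the median of 6.81, and Hdac4, Hdac5 and Hdac7 sit at 11.7, 13.2 and 16.3.

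None of the 6 start sites of Hdac9 in the GENCODE basic set or among curated RefSeq transcripts had a peak within 1 kb in any library. By contrast, all 4 start sites of Hdac5 and all 8 of Hdac7 lay within 1 kb of a peak in all 4 libraries, and 1 of 2 did so for Hdac4. The best-ranked Hdac9 peak of each list stood at 65.4% and 85.7% in the iTreg libraries and at 53.9% and 51.2% in the iTreg+IL-4 libraries. No Hdac9 peak was therefore in the upper 50% of any list.

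Of the 10 Hdac9 regions, 8 lay in introns without exon overlap, 1 overlapped exon 6 and 1 was in the downstream flank. Only 2 were called in all 4 libraries, 3 were called in a single library and 5 in other combinations. The +9.9 kb region (chr12:34907004-34907470, 467 bp) lay in intron 2 of the longest curated transcript and overlapped a start site annotated only outside the basic and curated sets. It ranked 81.1% and 85.7% in the iTreg libraries and 92.6% and 77.8% in the iTreg+IL-4 libraries, so the conditions overlapped. The widest Hdac9 region, 567 bp in intron 27 (chr12:34067102-34067668), ranked 95.1% and 93.7% without IL-4 and 97.1% in iTreg+IL-4 replicate 1, and had no peak in iTreg+IL-4 replicate 2.

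The +108.7 kb region of Hdac9 (chr12:34808242-34808512, 271 bp, intron 3) was the member with the largest rank difference between the conditions. It ranked 69.0% and 85.7% in the iTreg libraries and 53.9% and 51.2% in the iTreg+IL-4 libraries, a mean difference of -24.8 percentage points. The difference was -16.4 without iTreg replicate 2 and -33.1 without iTreg replicate 1. At this region the ranks of the conditions do not overlap, so leaving out a library could not turn the direction. Its −log10 q-values were 12.07 and 4.28 without IL-4, and 19.49 and 21.03 with it. Both iTreg+IL-4 libraries thus placed it above both iTreg libraries, although it stayed in the lower 50% of every list.

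Hdac4 carried the most regions. Its record covers 266.9 kb of chromosome 1 (chr1:91928779-92195699, minus strand), and with its flanks held 36 regions, or 11.7 per 100 kb. All 4 lists shared 16 of these, and 7 came from a single list. The region over its curated start site, which lies 15.4 kb inside the gene record, was the highest-ranked member of the family. This 930 bp region (chr1:92180190-92181119) ranked 0.510% and 0.745% in the iTreg libraries and 0.707% and 0.564% in the iTreg+IL-4 libraries. A start site at +47.3 kb, found in the GENCODE basic set, had a peak in 3 libraries, at 56.6% in iTreg replicate 1 and at 52.7% and 68.4% in the iTreg+IL-4 libraries. The largest rank difference at Hdac4 was -16.6 percentage points, at the +4.9 kb region (chr1:92190559-92191088). That region ranked 46.7% and 78.0% without IL-4, and 38.9% and 52.6% with it, so the conditions overlapped.

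Intron 2 of Hdac4 held 16 regions between chr1:92058765 and chr1:92137546, and 7 of them were called in all 4 libraries. The 3 best shared regions away from promoters all lay in this intron. The +115.5 kb region (chr1:92079826-92080556) ranked 2.90% and 5.55% without IL-4, and 2.12% and 4.72% with it. The +131.3 kb region (chr1:92064073-92064808) ranked 5.78% and 13.3% without IL-4, and 5.70% and 10.2% with it. The +76.3 kb region (chr1:92118917-92119785) ranked 7.69% and 19.3% without IL-4, and 4.22% and 12.9% with it. In each of these 3 the conditions overlapped, and replicate 1 ranked better than replicate 2 in both conditions. The widest Hdac4 region spanned 1213 bp in intron 3 (chr1:92050764-92051976) and ranked 21.7%, 40.3%, 16.5% and 29.3% in the 4 libraries in the same order. It lay 685 bases from a start site annotated only outside the basic and curated sets.

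**Figure D2:**
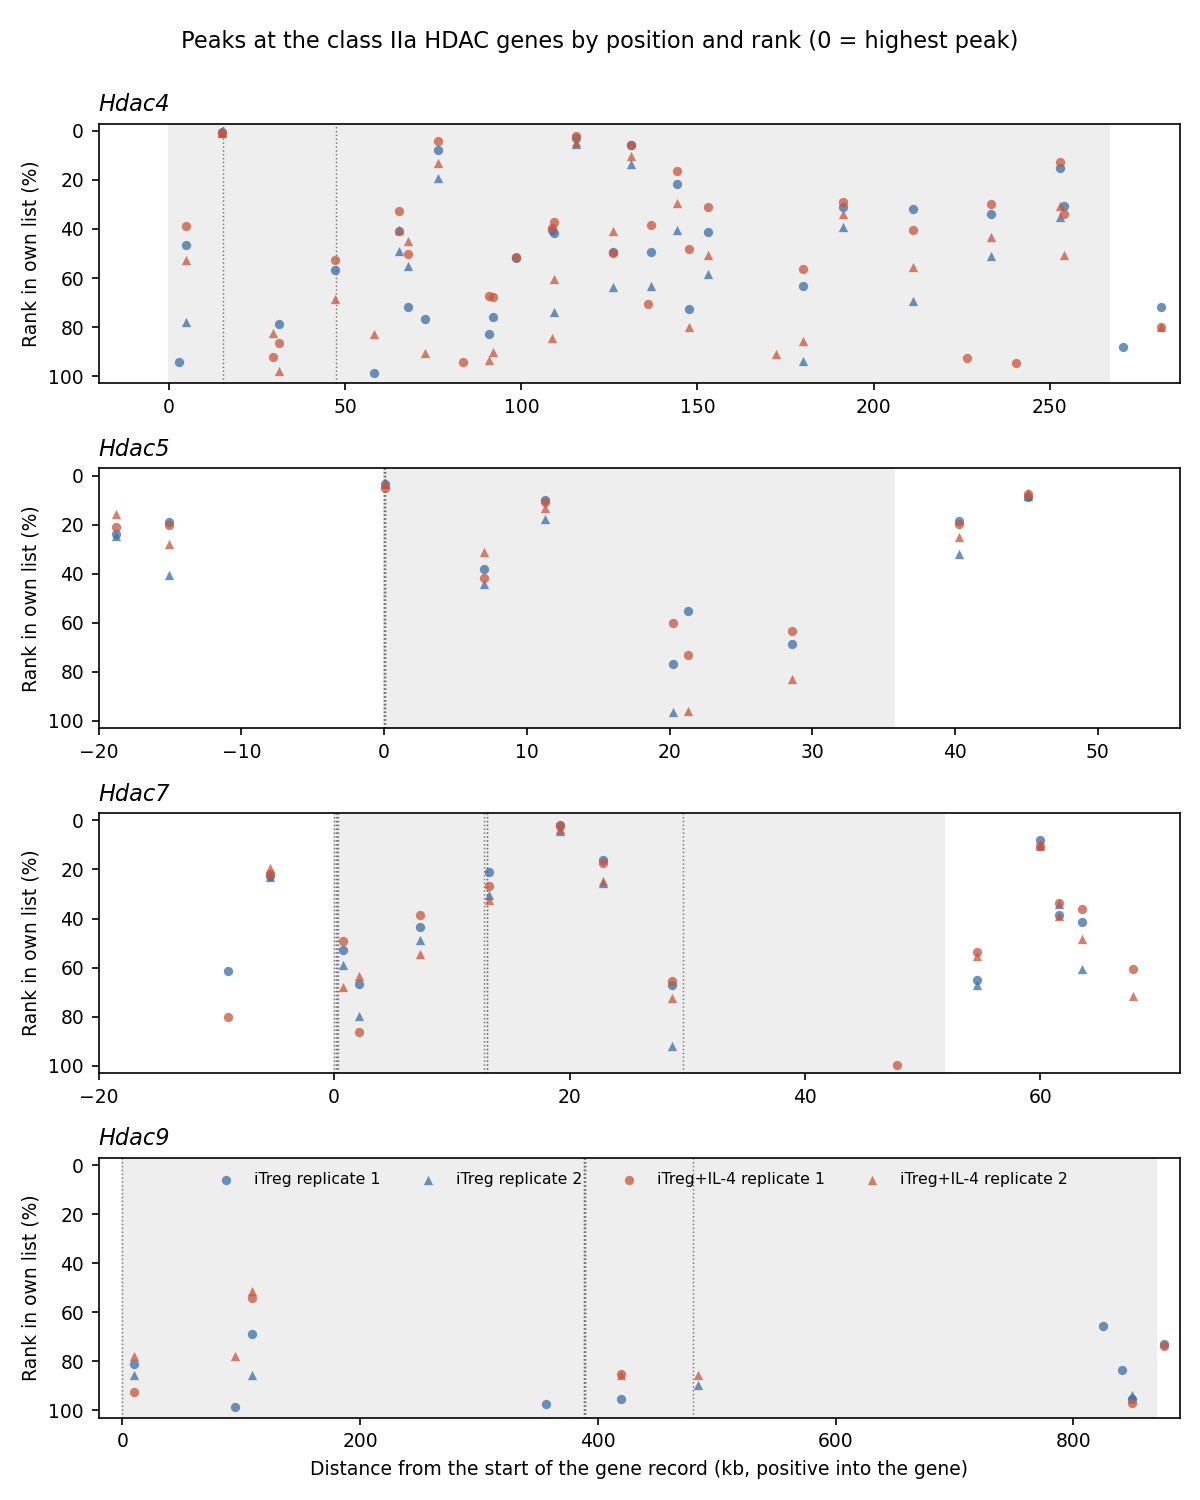
Rank of each peak within its own list (y axis, %, 0 at the top is the highest peak) against distance from the start of the gene record (x axis, kb) for the 4 genes, with the gene record shaded and start sites dotted. The 16 regions in intron 2 of Hdac4 include 3 of its best-ranked elements, and all Hdac9 points have ranks above 50%, in the lower part of the panel.

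Hdac5 was compact, with 10 regions around a record of 35.7 kb (chr11:102194432-102230166, minus strand), 13.2 per 100 kb, 7 of them shared by the 4 libraries and 0 found in a single list. Its promoter region (chr11:102229637-102230628, 992 bp, also its widest) ranked 3.56% and 3.46% without IL-4, and 5.12% and 2.99% with it. All 4 start sites of Hdac5 in the basic or curated sets fall inside it. Within the gene, the +11.2 kb region (chr11:102218538-102219320) overlapped intron 2, annotated exons and a start site annotated only outside those sets. This region ranked 9.78% and 17.6% without IL-4, and 10.6% and 13.2% with it. The +7.0 kb region of intron 2 (chr11:102222876-102223445) ranked 38.1% and 44.2% without and 41.8% and 31.0% with IL-4.

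Upstream of Hdac5, the -15.1 kb region (chr11:102244969-102245469) overlapped no annotated gene and ranked 18.8% and 40.3% in the iTreg libraries and 20.2% and 27.9% in the iTreg+IL-4 libraries. The 3 other flanking regions of Hdac5 lay at the start sites of its neighbours Lsm12, G6pc3 and BC030867. The conditions overlapped at the promoter, +11.2 kb, +7.0 kb and -15.1 kb regions of Hdac5.

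Hdac7 had the densest locus, 15 regions around a record of 51.8 kb (chr15:97792664-97844502, minus strand), or 16.3 per 100 kb, at the 90.9 percentile of protein-coding genes. All 4 libraries called 12 of them. Its start sites fell into 3 clusters, each with a peak within 1 kb in all 4 libraries but at different ranks. No peak of any library overlapped the bases around the outermost curated start (chr15:97844453-97844752) or the innermost one (chr15:97814814-97815113). The region at +13.2 kb (chr15:97830617-97832041) ranked 20.9% and 30.4% without IL-4, and 26.6% and 32.6% with it. The region at the gene's outermost start sites, which ended at chr15:97844315, ranked 52.8% and 58.8% without and 49.0% and 68.1% with IL-4. The region near the innermost start site (chr15:97815621-97816025), 758 bases from it, ranked 66.9% and 92.0% without and 65.5% and 72.4% with IL-4.

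The strongest element of Hdac7 was not at these sites. It was the +19.2 kb region of intron 1 (chr15:97824966-97825637, 672 bp), which ranked 2.03% and 4.24% in the iTreg libraries and 2.47% and 3.35% in the iTreg+IL-4 libraries. This region overlaps a predicted RefSeq start site that is in neither the basic nor the curated set. The +22.9 kb region of the same intron (chr15:97821275-97821992) lay 512 bases from another start site outside both sets. It ranked 16.3% and 25.3% without and 17.5% and 24.6% with IL-4. The widest member, 1503 bp at -5.5 kb (chr15:97849225-97850727), ranked 22.6% and 23.0% without and 22.0% and 19.3% with IL-4. The downstream flank of Hdac7 runs into Slc48a1, which held 4 of the 15 regions, including that at its own start site.

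Hdac4, Hdac5 and Hdac7 contributed 8, 7 and 6 regions that lay in the upper 50% of all 4 lists, and Hdac9 contributed 0. Over the genome 26311 of 93679 regions (28.1%) met this condition, compared with 22.2% at Hdac4, 70% at Hdac5 and 40% at Hdac7. The Hdac5 share includes the flanking regions at the start sites of Lsm12, G6pc3 and BC030867. That of Hdac7 includes regions in Slc48a1, with the one at its start site. Just beyond the 20 kb limit, the nearest excluded regions of Hdac9 lay 89.0 kb downstream, in a single list, and 32.2 kb upstream, in 2 lists. At Hdac7 the nearest excluded region lay 24.2 kb downstream and ranked between 18.6% and 28.3% in all 4 libraries, while the nearest included one on that side was the +67.9 kb region.

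The presence of peaks with and without IL-4 was compared to ask whether IL-4 opened or closed elements at these genes. Among the 71 regions, 2 (1 at Hdac4, 1 at Hdac7) were present in each library with IL-4 and absent from each library without it, whereas 2.6% of all regions in the genome showed this pattern. In the opposite direction, 0 of 71 were present only in the pair of libraries without IL-4, against 0.699% of all regions. No Hdac9 or Hdac5 region had either pattern. Single regions were not tested, since 2 against 2 libraries cannot reach an exact permutation p below 0.333. In these bulk libraries, a larger share of accessible cells and more accessibility per cell cannot be told apart.

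The +29.6 kb region of Hdac4 (chr1:92165742-92166467, 726 bp, intron 1) ranked 92.1% and 82.4% in the iTreg+IL-4 libraries, with −log10 q-values of 3.97 and 6.64. The +67.9 kb region of Hdac7 (chr15:97776475-97776778, 304 bp), in the downstream flank outside any annotated gene, ranked 60.5% and 71.6%, with −log10 q-values of 15.4 and 10.2. Both were in the lower 50% of their lists. With all lists shortened to the 56645 highest peaks, the Hdac7 region kept the pattern and the Hdac4 region did not, and the count fell to 1. Leaving out iTreg replicate 1, so that only the shortest list stood for the iTreg condition, raised the count from 2 to 13, and leaving out iTreg+IL-4 replicate 1 or 2 gave 4 or 7. Without iTreg replicate 2, 5 regions were called only without IL-4, 3 of them at Hdac9, and without iTreg+IL-4 replicate 1 the number was 3.

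The 37 regions called in all 4 libraries allowed ranks to be compared. Of these, 7 had a better rank in both iTreg+IL-4 libraries than in either iTreg library, a share to be read against 19.7% of the 47767 shared regions in the genome. A worse rank in both iTreg+IL-4 libraries was found for 0 of 37, against 5.18%. The 7 regions were the +67.9 kb and +65.2 kb regions in intron 2 of Hdac4, those at the start sites of the Hdac5 neighbours Lsm12 and BC030867, the +54.6 kb region of Hdac7 inside Slc48a1, the -5.5 kb region of Hdac7, and the +108.7 kb region of Hdac9. Their mean differences ran from -24.8 to -1.18 percentage points.

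Because a rank is a percentage of a list, a list with more low peaks gives the same region a better rank, and the iTreg condition included the shortest list. Over all 47767 shared regions the median difference was -2.05 percentage points. The regions were therefore also ranked among the 47767 shared regions only, which sets the 4 libraries to the same number of items. By construction, the mean rank over these regions is then nearly the same in every library. The median difference over the genome became 0.028, which is therefore no test of what shifted the ranks. By this ranking, 3 of the 37 members had a better rank in both iTreg+IL-4 libraries (14.3% of all shared regions) and 2 had a worse one (12.7%).

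The Hdac9 +108.7 kb region and the Hdac4 +65.2 kb region (chr1:92130097-92130936) were better placed with IL-4 under both rankings, with differences among shared regions of -17.0 and -5.59 percentage points. The third was the Hdac7 region near the innermost start site, at -3.86. The 2 with a worse rank were the Hdac7 promoter region at +13.2 kb, by 10.0 percentage points, and the region at the Slc48a1 start site, by 2.91. The shared-region ranks of the remaining 32 overlapped between the conditions.

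**Figure D3:**
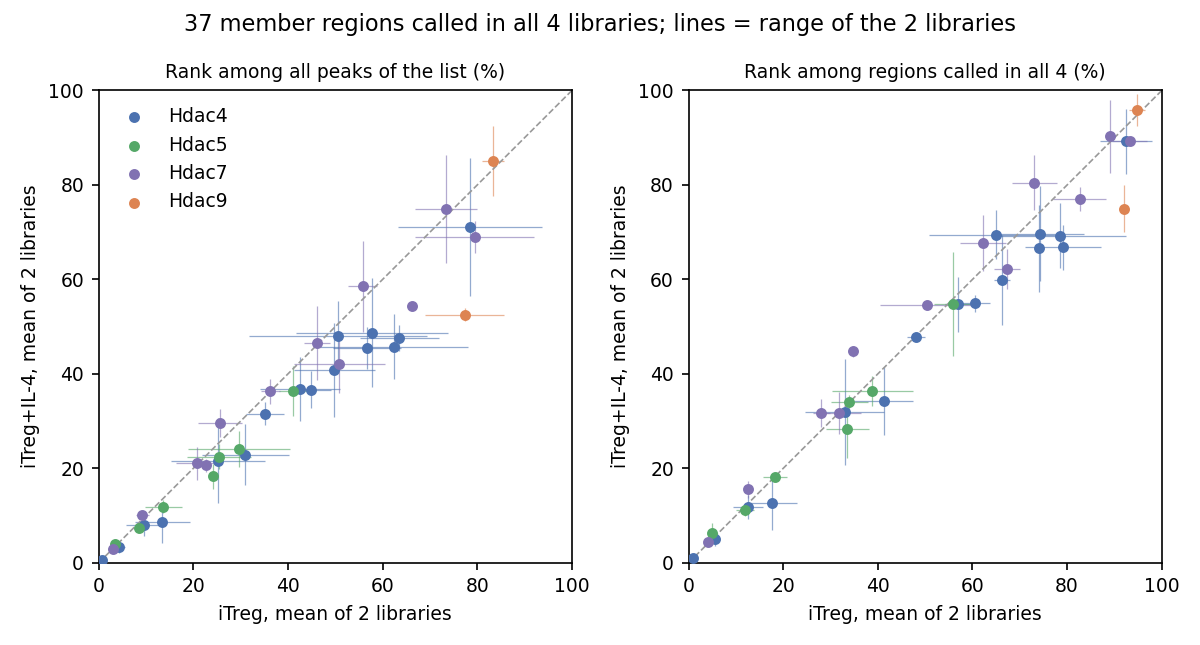
Mean rank of the 37 shared member regions in the iTreg (x axis, %) and iTreg+IL-4 (y axis, %) libraries, among all peaks of each list (left) and among the 47767 shared regions (right), with lines spanning the 2 libraries. Points below the diagonal rank better with IL-4, and the Hdac9 +108.7 kb region lies below it in both panels, with differences of -24.8 and -17.0 percentage points.

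Summarised by gene, ranks did not separate the conditions at Hdac4, Hdac5 or Hdac7. The median rank of the shared regions of Hdac4 was 33.0% and 50.1% in the iTreg libraries and 30.4% and 40.8% in the iTreg+IL-4 libraries, a difference of -5.91 percentage points (exact permutation test, two-sided, p = 0.667, n = 2 per condition). For Hdac5 it was 18.7% and 24.6% without and 19.8% and 15.6% with IL-4, a difference of -3.92 (exact permutation p = 0.667). For Hdac7 it was 39.8% and 41.6% without and 34.9% and 43.5% with IL-4, a difference of -1.50 (exact permutation p = 1). Libraries of the conditions overlapped for all 3 genes. Ranked among the shared regions only, the differences were -2.26 at Hdac4, -2.24 at Hdac5 and 2.78 at Hdac7. Among all peaks of each list, leaving out iTreg replicate 2 turned the difference to 3.32 at Hdac4 and 3.88 at Hdac5, and leaving out iTreg+IL-4 replicate 1 turned it to 3.03 at Hdac7.

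For the pair of shared Hdac9 regions the median was 75.01% and 85.7% in the iTreg libraries and 73.3% and 64.5% in the iTreg+IL-4 libraries, a difference of -11.5 percentage points (exact permutation p = 0.333). The conditions did not overlap, and 0.333 is the smallest p that 2 against 2 libraries can reach. The median joined a region with better ranks and one with overlapping ranks. Ranked among the shared regions only, its difference was -7.95. Among all peaks of each list, the difference without iTreg replicate 2 was 0.34, and without iTreg+IL-4 replicate 2 it was 9.17, since the regions called in all remaining libraries changed with the library left out.

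The number of bases inside peaks gave the breadth of open chromatin at each locus. Hdac4 had 14076 and 8081 bases inside peaks in the iTreg libraries and 15454 and 13556 in the iTreg+IL-4 libraries, with means ± SD of 11079 ± 4239 and 14505 ± 1342 (n = 2 each). Hdac5 had 5852 and 4627 without IL-4, and 5981 and 5383 with it. Hdac7 had 10114 and 7807 without IL-4, and 10663 and 9334 with it. In these 3 genes iTreg replicate 2 was the lowest library and iTreg+IL-4 replicate 1 the highest, the order of the lengths of the lists at both ends.

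Hdac9 had 2224 and 1380 bases inside peaks in the iTreg libraries and 1452 and 1197 in the iTreg+IL-4 libraries. With all 4 libraries it was the only one of the 4 genes with a lower mean with IL-4, by -477.5 bases, and its highest library was iTreg replicate 1. The differences for Hdac4, Hdac5 and Hdac7 were 3427, 442.5 and 1038 bases. With lists of equal length they were 2203, 4.5 and 573.5 bases, and that of Hdac9 was -550. The exact permutation p was 0.667 for each of the 4 genes. Without iTreg replicate 1 the Hdac9 difference was -55.5 bases, and without iTreg replicate 2 the differences were 429 at Hdac4, -170 at Hdac5 and -115.5 at Hdac7, so that Hdac5 and Hdac7 were then also lower with IL-4. The pooled SD between replicates was 3144 bases at Hdac4, 681.6 at Hdac5, 1331 at Hdac7 and 440.8 at Hdac9, smaller than the difference at Hdac4 and Hdac9 and larger at Hdac5 and Hdac7. Scaled to the total length of peaks in each list, Hdac9 held 54.7 and 47.1 bases per Mb of peaks in the iTreg libraries and 34.5 and 33.3 in the iTreg+IL-4 libraries, lower with IL-4 without overlap. Hdac4 held 346.4 and 275.8 bases per Mb of peaks without IL-4, and 367.4 and 376.8 with it, higher without overlap, and 0.333, the smallest possible value, was the exact permutation p of both genes. On this scale the mean differences of Hdac5 and Hdac7 turned negative, at -5.06 and -1.20.

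**Figure D4:**
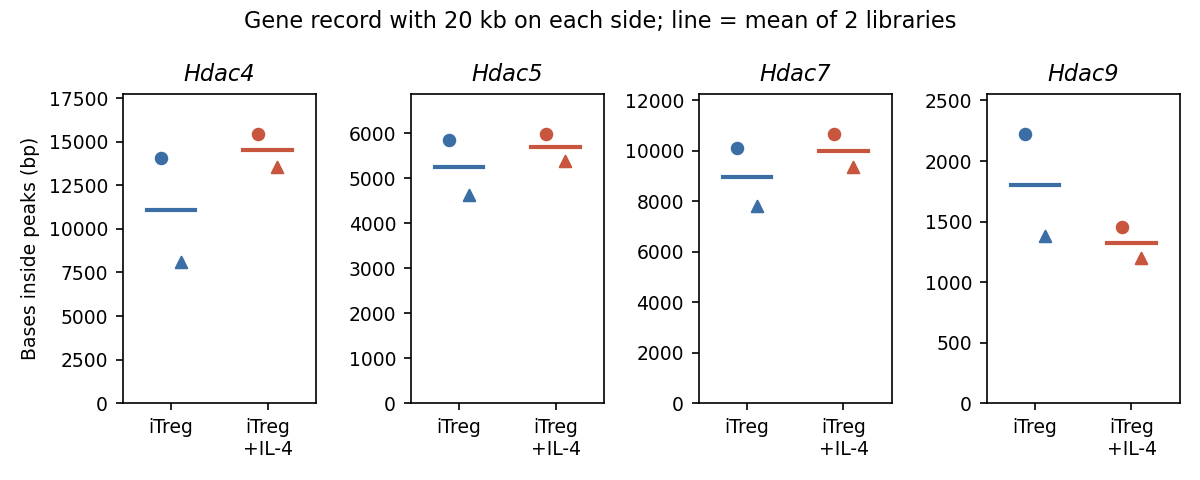
Bases inside peaks (y axis, bp, separate scale for each gene) in each library at the 4 genes with 20 kb on each side, with circles for replicate 1, triangles for replicate 2 and lines for the mean of 2 libraries. The iTreg replicate 2 library is lowest at Hdac4, Hdac5 and Hdac7, and the values of both conditions overlap at all 4 genes.

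Sequence patterns were counted in the central 200 bases of every region, on both strands, without removing overlaps between patterns. AP-1 matches (TGANTCA) occurred in 15 of the 71 members, of which 6 were at Hdac4, 3 at Hdac5, 2 at Hdac7 and 4 at Hdac9, a share of 21.1% compared with 12.8% of all 93503 regions. RUNX matches (TGTGGT) occurred in 13 members (18.3%, against 21.2%), with 11 of them at Hdac4. GATA matches (AGATAA) occurred in 7 (9.86%, against 7.79%), with 6 at Hdac4 and the other at the +108.7 kb region of Hdac9.

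The STAT6-type pattern, with arms TTC and GAA and 4 bases between them, was found in 2 members (2.82%, against 5.81% of all regions). These were the +419.1 kb region in intron 4 of Hdac9 and a region in intron 3 of Hdac5. The Hdac9 region (chr12:34497852-34498062) ranked 95.1% in iTreg replicate 1 and 85.1% and 85.6% in the iTreg+IL-4 libraries, with no peak in iTreg replicate 2. The STAT5-type pattern TTCNNNGAA occurred in 1 member (1.41%, against 8.42%), at Hdac4. The MEF2-type pattern, with arms CTA and TAG and 4 bases between them, occurred in 2 members, both at Hdac5 (2.82%, against 2.84%). Neither region called only with IL-4 held a STAT6-type, STAT5-type, AP-1, RUNX or MEF2-type match, and the Hdac4 one held a GATA match, shown in capitals in its sequence.

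The genes that act with class IIa HDACs were counted in the same way. The list of 29 genes comprised 4 MEF2 factors, 12 kinases, 6 14-3-3 chaperones, 6 corepressor genes and Nr4a1, and held 377 regions. Of these, 16 were called only with IL-4 (4.24%, against 2.6%) and 1 only without IL-4 (0.265%, against 0.699%). Those 16 lay in 11 of the 29 genes, while 11.1% of all protein-coding genes had such a region, a share not matched for gene length or number of regions. By list, they were 7 of 84 corepressor, 4 of 49 14-3-3, 3 of 187 kinase, 2 of 44 MEF2 and 0 of 13 Nr4a1 regions. Among 203 shared regions of the list, 43 (21.2%) had a better and 7 (3.45%) a worse rank in both iTreg+IL-4 libraries, against 19.7% and 5.18% of all shared regions. The 7 HDAC genes outside class IIa, with 42 regions, had 1 called only with IL-4 and 0 called only without, and Hdac3 stands in both lists.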

How the data were processed

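ATAC-seq was measured in 4 libraries of mouse CD4+ T cells, 2 per condition, grouped by the treatment in the sample labels. Sequencing used the BGISEQ-500 platform. Per the submitters' processing notes, the authors used Bowtie2 2.2.5, MACS2 2.1.2 and bedtools 2.16.2 with mm10. Each deposited list gives a position and values read from the files as the −log10 q-value and the pileup height (signal) of each peak, and neither is scaled between libraries by the authors in any way the sources used here state. A correction for the Tn5 offset, removal of duplicate reads and peak caller settings are not given in the sources used here. All peaks had a −log10 q-value of at least 1.31. The lists hold no reads, so depth is unknown and no count model or counting interval applies.

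Computations used pandas 2.3.3 and numpy 2.4.6 under Python 3.11.15, with samtools 1.23.1 and pysam 0.24.0 for sequence. Gene records and basic start sites came from GENCODE vM21, curated and predicted transcripts and the sequence from RefSeq GRCm38.p6, the same assembly as mm10. Positions count from 1. A promoter was a region within 1 kb of a start site. Values per library were compared by exact two-sided permutation tests, whose smallest p with 2 against 2 libraries is 0.333. The paper describes the samples of a condition as pooled and biologically independent, while the labels tie no library to particular animals, so p-values measure the spread between these libraries, which may be partly technical. Regions named were those called only in one condition, those at start sites, the 3 best-ranked shared ones outside promoters, those with the largest rank difference and the widest. The sequence of the best shared region of Hdac5 was replaced by the next one without annotated exons. Members, gene lists and motifs were chosen with earlier results of these data known. Calling, ranking and the tests were tested on simulated lists. A further marker list was examined and is not reported here.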

Additional observations from a re-analysis of the deposited data

How the results depend on the processing

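Across the 19 results, 146 values were recomputed, of which 116 kept their direction or, for counts, stayed within 1.5 times (for single regions, within 1 SD of the replicates), 16 moved further, 13 turned direction and 1 became 0; the lowest exact permutation p was 0.333 throughout. For the 7 single regions every alternative, leaving out libraries included, and for the counts of better and worse ranks both other rankings, were chosen after seeing the data. These 7 regions were picked for ranks without overlap, so leaving out a library could neither turn their direction nor move them beyond 1 SD. Values with the replicate number as a block keep their direction by construction. Both kinds are counted among the 116. Bases inside peaks turned to -5.06 (Hdac5) and -1.20 (Hdac7) when scaled to the length of each list's peaks, and to -135 for Hdac7 and 0 for Hdac9 in the upper 50% of the lists. Leaving out each library gave 429 to 6424 bases for Hdac4, -170 to 1055 for Hdac5, -115.5 to 2192 for Hdac7 and -899.5 to -55.5 for Hdac9, with -170 and -115.5 without iTreg replicate 2. The cause was not tested.

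Regions called only with IL-4 numbered 0 in the upper 50% of the lists, 1 in lists of equal length, 1 with no flank, 3 with a flank of 50 kb, 4 with a reciprocal overlap of 50%, and 2 to 13 leaving out each library. Those specific to the libraries without IL-4 came to 1 under the reciprocal overlap and to 0 to 5 leaving out each library.

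The rank difference of Hdac7 turned to 0.42 with no flank, 0.024 with a flank of 50 kb and 2.78 among regions called in all 4. With no flank the difference was -1.77 at Hdac5 and unchanged at Hdac4 and Hdac9. Leaving out each library gave -14.4 to 3.32 for Hdac4, -6.90 to 3.88 for Hdac5, -5.83 to 3.03 for Hdac7 and -16.8 to 9.17 for Hdac9. The positive values of Hdac4 and Hdac5 arose without iTreg replicate 2, that of Hdac7 without iTreg+IL-4 replicate 1, and those of Hdac9 without iTreg replicate 2 (0.34) and iTreg+IL-4 replicate 2 (9.17).

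With the replicate number as a block, differences were unchanged by construction, at 3427, 442.5, 1038 and -477.5 bases and -5.91, -3.92, -1.50 and -11.5 percentage points, and the smallest possible p was 0.5, reached by all 4 differences in bases and by the ranks of Hdac4 and Hdac9. Deviations of same-numbered libraries correlated at 0.45 over 47767 shared regions, and replicate 1 ranked better in both conditions in 24 of 37 members against 61.4% of all shared regions. Labels give no shared origin of the numbers.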
